A study of Rattus norvegicus with 16 samples.

Results

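The cholesterol synthesis and sterol sensing genes were described in the liver of male Sprague-Dawley rat pups at 21 days of age. A list of 28 genes was matched to array probes through RefSeq identifiers, and where a gene had several probes the one with the highest mean Cy5 signal stood for it. Of the 28 genes, 27 had a probe and 26 were tested, among 12072 genes tested in all. Lbr, a sterol reductase gene, had no matching probe, and the probe of Soat1, which encodes a cholesterol-esterifying enzyme, was well above background on 2 of 16 arrays and was too dim to be kept. Each array held Cy5-labelled liver RNA pooled from 2 pups against a Cy3-labelled universal reference RNA made from rat cell lines. There were 4 groups of 4 arrays. The C pups were nursed by their birth mothers, which were dosed with corn oil only, and the CC pups were controls moved after birth to another dam on corn oil. The M pups were born to and nursed by dams dosed during gestation and nursing with a blend of organochlorine pesticides, polychlorinated biphenyls and methylmercury in corn oil, at a daily dose of 1 mg/kg. The MM pups were born to such a dam and moved after birth to another one on the same dose. All groups therefore shared the corn oil vehicle, and no exposed group was raised by unexposed dams here. The labels do not tie a pool to a litter, so p-values measure the spread between these pools.

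Hepatocytes make cholesterol from acetyl-CoA. The first enzymes build mevalonate and turn it into farnesyl diphosphate, and the later enzymes turn squalene into lanosterol and then into cholesterol. The pathway is set mainly by the transcription factor SREBP-2, the product of Srebf2: when membranes are poor in sterols, Scap escorts it to the Golgi, where it is cut free to enter the nucleus. When sterols are plentiful, the Insig proteins hold Scap in the endoplasmic reticulum and the enzyme genes are transcribed less. The related factor SREBP-1c drives fatty acid synthesis genes through the same escort.

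The upstream windows of these genes are shown first, as background. Whether their motifs have a part in the levels measured here was not tested. SREBP proteins are weak activators alone and work with NF-Y, which binds CCAAT boxes, and with Sp1, which binds GC boxes. RefSeq windows of the GRCr8 build, from 250 bases before to 50 bases after the gene start, were matched for 24 of the 28 genes, and Sqle, Fdft1, Stard4 and Pmvk had no entry. The motif CCAAT was found on either strand in 18 of 24 windows (75%) and in 37.5% of all 33469 windows of the same length. The GC box GGGCGG was found on either strand in 20 of 24 windows (83.3%) and in 33.1% of all windows. The core of the classical sterol regulatory element, searched as TCACNCCAC on both strands, was found in 0 of 24 windows and in 1.12% of all windows, which says only that these letters are not in these windows. Matches were counted for each motif on its own, also where matches of different motifs overlapped. The motifs were chosen after the members' windows had been seen, so the shares are descriptions. The windows counted for comparison were not limited to genes bright enough in liver to be tested. The 6 windows below belong to the 4 members with an entry that lay furthest below the other control arrays on array C 9, to Insig1, and to Scap, the one member called lower in both mixture comparisons. They run 5′ to 3′ on the gene's strand, and capitals mark CCAAT or its reverse complement ATTGG:
Hmgcs1 (chr2:53382054-53382353, plus strand): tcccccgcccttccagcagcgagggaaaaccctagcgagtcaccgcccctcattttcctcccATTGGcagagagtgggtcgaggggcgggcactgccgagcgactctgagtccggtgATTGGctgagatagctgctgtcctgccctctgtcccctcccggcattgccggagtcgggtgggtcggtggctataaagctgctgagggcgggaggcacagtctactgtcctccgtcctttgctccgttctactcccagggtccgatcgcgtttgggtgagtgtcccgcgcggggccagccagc
Fdps (chr2:176804767-176805066, minus strand): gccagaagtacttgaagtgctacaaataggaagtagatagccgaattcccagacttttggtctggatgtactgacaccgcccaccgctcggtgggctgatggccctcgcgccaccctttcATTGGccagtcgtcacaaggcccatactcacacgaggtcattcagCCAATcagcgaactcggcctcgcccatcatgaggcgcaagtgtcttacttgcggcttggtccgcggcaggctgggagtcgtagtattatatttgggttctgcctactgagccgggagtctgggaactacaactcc
Acat2 (chr1:50100590-50100889, plus strand): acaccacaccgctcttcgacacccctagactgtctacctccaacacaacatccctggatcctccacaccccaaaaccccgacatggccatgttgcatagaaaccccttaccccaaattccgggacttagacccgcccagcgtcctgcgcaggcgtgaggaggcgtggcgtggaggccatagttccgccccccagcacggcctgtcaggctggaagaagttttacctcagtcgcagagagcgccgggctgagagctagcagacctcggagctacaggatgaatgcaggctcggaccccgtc
Idi1 (chr17:66547475-66547774, minus strand): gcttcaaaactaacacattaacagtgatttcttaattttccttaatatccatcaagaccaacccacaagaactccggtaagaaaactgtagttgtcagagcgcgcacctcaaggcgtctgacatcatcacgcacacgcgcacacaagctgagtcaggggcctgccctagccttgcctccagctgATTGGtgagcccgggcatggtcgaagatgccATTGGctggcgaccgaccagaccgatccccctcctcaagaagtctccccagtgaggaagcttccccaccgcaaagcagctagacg
Insig1 (chr4:8057720-8058019, minus strand): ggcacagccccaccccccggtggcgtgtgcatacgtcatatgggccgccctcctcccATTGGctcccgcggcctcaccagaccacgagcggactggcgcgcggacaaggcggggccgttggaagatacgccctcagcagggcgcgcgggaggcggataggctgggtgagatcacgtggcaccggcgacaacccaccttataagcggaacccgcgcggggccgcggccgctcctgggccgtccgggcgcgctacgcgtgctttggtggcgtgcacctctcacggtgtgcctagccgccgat
Scap (chr8:119184188-119184487, plus strand): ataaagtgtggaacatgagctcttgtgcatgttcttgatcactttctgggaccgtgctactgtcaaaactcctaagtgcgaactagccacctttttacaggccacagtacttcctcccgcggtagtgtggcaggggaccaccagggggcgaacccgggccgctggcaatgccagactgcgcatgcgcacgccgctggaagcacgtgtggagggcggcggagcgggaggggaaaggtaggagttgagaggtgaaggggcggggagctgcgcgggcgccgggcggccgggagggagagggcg
Hmgcs1, Fdps and Idi1 each hold 2 boxes and Insig1 holds 1, while Acat2 and Scap hold none. Of the 15 genes with a window that were lower on C 9 by more than 1 on the log2 scale, 12 held CCAAT, and of the other 9 with a window, 6 held it. For the GC box GGGCGG the counts were 14 of 15 and 6 of 9. The 9 other genes include Lbr and Soat1, which hold 2 CCAAT boxes and 1 CCAAT box. Neither was tested, so they have no value on C 9.

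Slide 1 carried the 8 arrays of unexposed pups (C and CC) and slide 2 the 8 arrays of exposed pups (M and MM), so slide and mixture cannot be told apart, while cross-fostering was compared within a slide. The arrays of a slide lay in 2 rows, and each group had 2 arrays in either row. Between the slides, 76.5% of all genes differed in the Cy3 reference, which holds no pup RNA. The Cy5 difference and the reference shift are therefore given for Scap, Srebf2, Insig1 and Ggps1, and for several named genes of other lists. A ratio difference given without them is not set against this shift. The 8 hepatocyte markers gave a summed Cy5 signal of 1120000 to 1190000 on the 16 arrays. Cy5 signals were scaled to the same distribution on every array, so this narrow range says little about hepatocyte content. Skeletal muscle markers (5 of 7 tested, without Acta1 and Ckm) summed to 8790 on CC 1 and 8840 on CC 2 against 552 to 711 on the other arrays, and exocrine pancreas markers (2 of 6 tested) to 2440 on CC 1, 7160 on CC 2, 1950 on MM 1 and 994 on M 6 against 165 to 404 elsewhere. Their part in the results was not tested. In these bulk samples, fewer cells of a type and less RNA per cell cannot be told apart.

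The main pattern among the cholesterol genes was 1 control pool. On array C 9 nearly the whole enzyme pathway was low: 18 of the 26 tested genes lay more than 1 below the mean of C 10, C 11 and C 12 on the log2 scale (a 2-fold difference), where 0.431% of all genes did. The median over the 26 genes was -1.72 for the log2 ratio, against 0.01 for all genes. It was -1.77 in the Cy5 channel alone and 0.03 in the reference channel, so the low values were in the liver channel. C 9 was the lowest of all 16 arrays for 21 of the 26 genes, against 7.6% of all genes. Of the 10 genes with an established symbol that lay furthest below the other control arrays on C 9, among 7885, 9 were cholesterol genes, and of the 30 furthest below, 17 were. As C 9 is a single array chosen for these values, no test was made, and its 2 pups cannot be separated from its hybridization.

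All 7 tested genes of the mevalonate arm were low on C 9. Their median was -2.52, and they ran from -2.66 for Hmgcs1 and Fdps to -1.60 for Pmvk. Hmgcs1, which makes HMG-CoA from acetyl-CoA units, had log2 ratios of 0.90 on C 9, 3.85 on C 10, 4.09 on C 11 and 2.74 on C 12, with Cy5 levels of 11801, 70689, 90045 and 37021 in the same order. Its ratio was 3.66, 3.68, 3.01 and 3.24 on CC 1 to CC 4, 2.29, 3.28, 2.57 and 2.55 on M 5 to M 8, and 2.89, 3.25, 3.57 and 2.91 on MM 1 to MM 4. C 9 alone lay below 2, and C 10 and C 11 were the highest of the 16 arrays, so the control group spanned the other 3 groups. Fdps, which makes farnesyl diphosphate, was at -1.02 on C 9, 1.92 on C 10, 1.84 on C 11 and 1.17 on C 12, while its range over the other 3 groups was 0.95 to 1.96. A second, dimmer Fdps probe was at -2.30 against the other control arrays. Idi1, the isomerase before Fdps, was at -0.24 on C 9 against 2.64, 2.70 and 1.52 on the other control arrays. Acat2, the thiolase that opens the route, was 6.12-fold lower on C 9, Mvd, which decarboxylates mevalonate diphosphate, 4.47-fold, and the kinases Mvk and Pmvk 3.07-fold and 3.04-fold. Apart from the regulators and Scap, genes given array by array here were chosen after their values had been seen.

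Of the 11 tested genes of the sterol arm, 10 were lower on C 9 by more than 1 log2 unit, with a median of -2.34. Sqle, the squalene epoxidase, was at -1.75 on C 9 and at 1.31, 1.14 and 0.23 on C 10 to C 12, and it lay between 0.19 and 1.08 on all 12 arrays of the other groups. Dhcr7, the last reductase of its branch, was at -1.23 on C 9 and at 1.35, 1.52 and 0.97 on C 10 to C 12, and between 0.82 and 1.58 on the other 12 arrays. In both cases C 9 lay below all other 15 arrays. The other control arrays of Dhcr7 lay within the range of the remaining groups, while for Sqle C 12 lay within it and C 10 and C 11 above it. Cyp51, the lanosterol demethylase, was 5.31-fold lower on C 9, the sterol reductase Tm7sf2 5.10-fold, Msmo1, which oxidizes methyl groups of sterols, 5.07-fold and the lanosterol synthase Lss 5.06-fold. Hsd17b7, a ketosterol reductase, was 3.55-fold lower, the squalene synthase Fdft1 2.90-fold, the sterol isomerase Ebp 2.71-fold and the desaturase Sc5d 2.04-fold. Nsdhl, a decarboxylating sterol dehydrogenase, was 1.74-fold lower and so just outside the 2-fold line, and Sc5d was just inside it.

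Among the sensing genes Insig1, itself a classical SREBP target, was the 1 of 4 past that line on C 9, at -2.12. Srebf2 was at -0.73, Scap at -0.43 and Insig2 at -0.16. Among the transport genes, Stard4, a sterol carrier, was at -0.88, Npc1, which exports cholesterol from lysosomes, at -0.48, and the efflux pump Abca1 at -0.06. The second probes of Stard4 and Npc1 gave -0.37 and 0.03. Ggps1, which branches off to geranylgeranyl diphosphate, was at 0.07. Its probe was dim, well above background on 9 of 16 arrays, while the other 25 tested genes were above it on all 16.

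**Figure D1:**
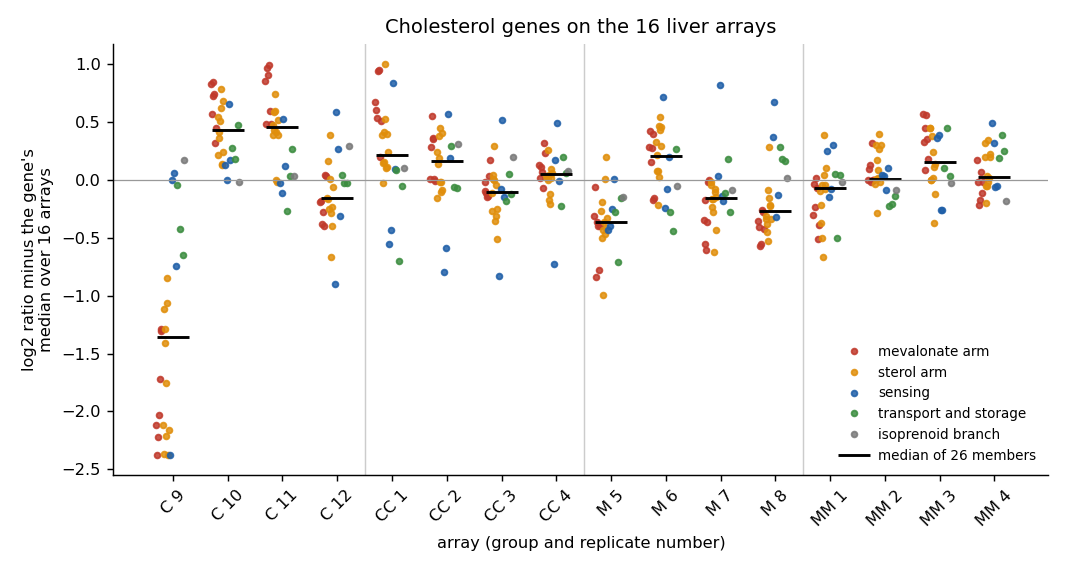
Each point is 1 of the 26 cholesterol genes on 1 of the 16 arrays, as its log2 ratio of Cy5 over Cy3 minus that gene's median over all arrays (vertical axis, log2 units). Colours give the gene's role, black bars the median of the 26 genes, and grey lines separate the groups. The points of the mevalonate and sterol arms on C 9 lie below those of every other control array, while C 10 and C 11 lie above the zero line by their medians.

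Some genes of fatty acid synthesis were also low on C 9. Of 12 tested genes of fatty acid synthesis driven by SREBP-1, 7 were lower by more than 1 log2 unit, with a median of -1.10. The desaturase Scd was lowest at -2.18, followed by the elongase Elovl6 at -1.87, Acly, which makes cytosolic acetyl-CoA, at -1.84 and the fatty acid synthase Fasn at -1.80. By contrast, the 11 genes of bile acid synthesis had a median of 0.08 and none past that line, the 16 genes of sterol transport, esterification and export a median of -0.02 and none past it, and the 11 other genes of the isoprenoid and sterol branches a median of -0.07 and none past it. In the list of 10 other sterol regulation genes, 2 were past it and the median was -0.04. The median shift of hepatocyte markers on C 9 was 0.10, and the summed Cy5 signals of muscle and pancreas markers there, 602 and 188, lay within the range of the other control arrays, as did those of Kupffer cell, endothelial and red blood cell markers. Stellate cell and fibroblast markers summed to 9310 on C 9 and cholangiocyte markers to 416, above the other control arrays (6620 to 8540 and 342 to 391) and within the range of the other groups. Of the 4 listed adipocyte markers, Adipoq and Plin1 were not tested. The 2 tested ones, Cidec and Cfd, summed to 4850 on C 9, the highest of the 16 arrays (2360 to 3830 elsewhere). The part of these signals in the low cholesterol genes was not tested.

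**Figure D2:**
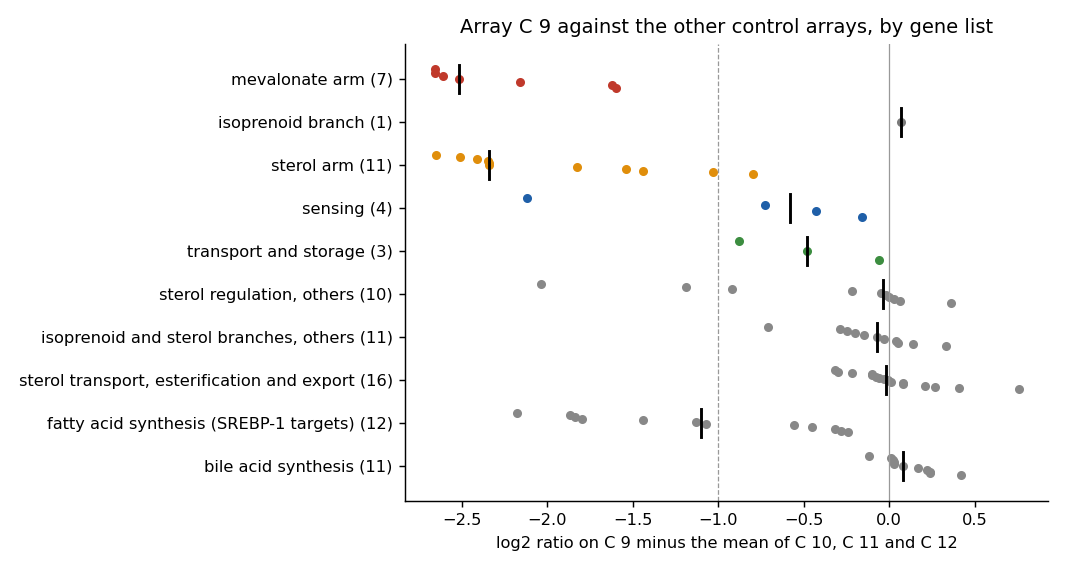
Each point is 1 gene, placed by its log2 ratio on C 9 minus the mean of C 10, C 11 and C 12 (horizontal axis, log2 units). Rows are gene lists with the number of genes in parentheses, black bars are medians, and the dashed line marks a 2-fold lower value. The mevalonate arm at a median of -2.52 and the sterol arm at -2.34 lie farthest to the left, the fatty acid list is split by the dashed line, and the bile acid list sits near zero.

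The other control pools were also graded. C 12 lay below both C 10 and C 11 for 23 of the 26 genes, where 35.2% of all genes did, with a median of -0.45 against their mean (all genes -0.01). The within-group SD of the log2 ratio, as the median over the 26 genes, was 0.906 in C (n = 4 arrays), 0.225 in CC, 0.296 in M and 0.216 in MM, and 0.277 in C without C 9 (n = 3). The same medians over all genes were 0.117, 0.132, 0.140, 0.147 and 0.0998. In the other 3 groups no array had a cholesterol gene more than 1 log2 unit below the mean of the other arrays of its group. Some arrays there were highest or lowest of their group for many of the genes: M 6 was the highest M array for 19 of 26 genes, CC 1 the highest CC array for 15, CC 3 the lowest CC array for 16, and MM 1 the lowest MM array for 15. These arrays were picked for their counts, and the matching shares over all genes were not counted. The counts therefore do not set the cholesterol genes apart from other genes.

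The comparison of M with C asks how the mixture altered these genes in pups kept with their own dams. With all arrays, none of the 26 genes rose and 1 fell, the SREBP escort gene Scap, at an adjusted p below 0.05. Among all genes 8.19% rose and 12.3% fell. Their median difference was -0.04, against -0.05 for all genes. The standard errors of the enzyme genes were wide, 0.488 for Hmgcs1 and 0.464 for Sqle, whose differences were -0.22 and 0.24. Hsd17b7 was at -0.44 ± 0.343 (SE) and Insig1 at 0.96 ± 0.393, with adjusted p-values of 0.403 and 0.0954. In Cy5 alone no cholesterol gene was called, where 2.27% of all genes were.

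The result changed when C 9 was left out. Then 6 of the 26 genes fell and none rose, where 9.40% of all genes fell, and 22 of 26 had a negative difference, with a median of -0.36. Besides Scap, these were Hsd17b7 at -0.89 (adjusted p = 0.0136), Lss at -0.76 (0.0399), Mvk at -0.62 (0.0436), Ebp at -0.57 (0.00918) and Pmvk at -0.57 (0.0247). Hmgcs1 was at -0.89 and Idi1 at -0.80 without being called (adjusted p = 0.0574 and 0.0743). In Cy5 alone without C 9 the median was -0.43 and 24 of 26 genes had a negative difference, but none was called, and the smallest adjusted p was 0.0934. C 9 was left out because of its low values in these same genes, so the direction without it is not independent of that choice. Leaving out any of the other 7 arrays of the comparison gave 1 or 2 calls.

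**Figure D3:**
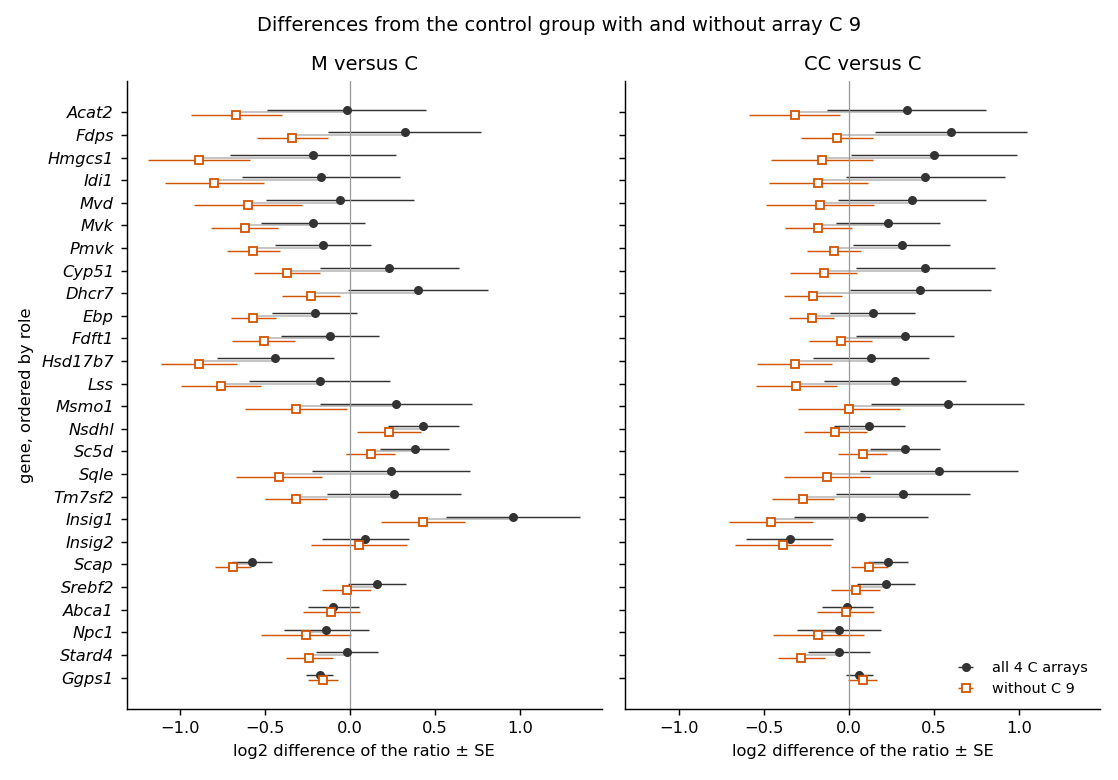
The log2 difference of the ratio from the control group (horizontal axes, with its limma SE as bars) is shown for each of the 26 genes, ordered by role, in M (left) and CC (right). Filled circles use all 4 C arrays, open squares leave out C 9, and a grey line joins the 2 values of a gene. Without C 9 nearly all genes of the mevalonate and sterol arms move to the left, while Scap stays at -0.58 and -0.69 in M.

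In cross-fostered pups, MM against CC, 2 of the 26 genes fell and none rose, with a median of -0.06 (all genes -0.06). Among all genes 7.83% rose and 12.3% fell. The genes that fell were Scap and Ggps1. In Cy5 alone Scap was the 1 gene called, where 2.63% of all genes were. Neither group holds C 9, and leaving it out of the fit changed only the estimate of spread: Insig1 then also rose, giving 3 calls (7.76% of all genes rose and 12.1% fell in that fit). All 7 mevalonate arm genes had negative differences, from -0.33 to -0.05, and none was called. The tests of the sterol arm gave differences from -0.43 for Lss to 0.29 for Nsdhl, also with no call. In Cy5 alone Lss was at -0.39 and Nsdhl at -0.09, with reference shifts of 0.04 and -0.35. Scap was the only gene of the 26 whose 4 arrays in M all lay apart from the 4 in C, where 25.1% of all genes did, and it, Ggps1 and Insig1 were apart between MM and CC, where 22% of all genes did.

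Scap was lower in both exposed groups. Its log2 ratio was 1.26, 1.86, 1.73 and 1.47 on C 9 to C 12 and 2.04, 1.77, 1.72 and 1.69 on CC 1 to CC 4. It was 0.95, 1.12, 1.06 and 0.88 on M 5 to M 8 and 1.12, 1.11, 0.94 and 1.14 on MM 1 to MM 4. Every exposed array lay below every unexposed array. The difference was -0.58 ± 0.117 (SE, n = 4 arrays per group, adjusted p = 0.00253) in M against C, or 1.49-fold lower, and -0.73 ± 0.117 (adjusted p = 0.000532) in MM against CC, or 1.66-fold lower. The liver channel alone was lower by less. Scaled Cy5 levels were 1387, 2020, 1926 and 1547 in C and 1441, 1496, 1466 and 1229 in M, which overlap, with a difference of -0.28 (adjusted p = 0.218). They were 2168, 1914, 1884 and 1858 in CC and 1569, 1479, 1379 and 1404 in MM, which do not overlap, with a difference of -0.42 (adjusted p = 0.0467). The reference channel was higher on slide 2 by 0.29 for this probe, in the direction that lowers the ratio. Within array row 1 the ratio differences were -0.52 and -0.79 (adjusted p = 0.127 and 0.057) for M and MM, and within row 2 they were -0.63 and -0.67 (0.0302 and 0.0202). On C 9, the array with low enzyme genes, Scap was also the lowest of the 8 unexposed arrays.

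Insig1 was higher in the ratio in both exposed groups without being called in the fit of all arrays. Its log2 ratio was -1.19, 1.32, 1.16 and 0.29 on C 9 to C 12 and 0.64, 0.39, 0.36 and 0.46 on CC 1 to CC 4, against 0.76, 1.91, 1.22 and 1.56 on M 5 to M 8 and 1.44, 1.23, 1.55 and 1.68 on MM 1 to MM 4. The C and M arrays overlap, and the CC and MM arrays do not. The difference of MM from CC was 1.01 ± 0.393 (adjusted p = 0.0812). The same difference was called in the fit without C 9 (0.00665) and with only CC and MM in the fit (0.000908), and it was 1.20 within array row 2 (0.0277). It was not called within array row 1, and 4 of 23 limma fits called it. Leaving out 1 array at a time gave adjusted p-values up to 0.163. The difference of M from C was 0.96 ± 0.393, or 0.43 without C 9. The liver channel showed little of this. The Cy5 difference was 0.09 in M and 0.19 in MM (adjusted p = 0.947 and 0.889), with levels of 394 to 505 in CC and 405 to 576 in MM. The reference channel was lower on slide 2 by 0.84 log2 units, with signals of 924 to 989 on the 8 arrays of slide 1 and 528 to 569 on the 8 of slide 2. The higher ratio therefore stood beside a lower reference signal, with liver signals that overlap.

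Srebf2, the gene of SREBP-2 itself, differed little. Its log2 ratio was -0.96, -0.05, -0.10 and -0.53 in C, -0.13, -0.03, -0.37 and -0.23 in CC, -0.21, -0.02, -0.40 and -0.35 in M, and 0.08, -0.12, -0.48 and -0.27 in MM. All 4 groups overlap, and C 9 was again the lowest array. The differences were 0.16 ± 0.171 in M and -0.01 ± 0.171 in MM, and both cross-fostering differences, 0.22 and 0.05, had an adjusted p of 1. The liver channel was at -0.14 and -0.27 in M and MM (adjusted p = 0.765 and 0.521), and the reference at -0.28 on slide 2.

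Insig2, the second Insig gene, was ordered by array row. Its log2 ratio was 3.21, 3.21, 3.10 and 3.80 on C 9 to C 12, 2.78, 2.62, 3.13 and 3.38 on CC 1 to CC 4, 2.81, 2.97, 4.03 and 3.88 on M 5 to M 8, and 3.06, 3.24, 3.60 and 3.53 on MM 1 to MM 4. In each group the first 2 arrays named lay in array row 1 and the last 2 in row 2. In CC, M and MM both row 2 arrays were above both row 1 arrays, most widely in M. The mixture differences were 0.09 ± 0.255 in M and 0.38 ± 0.255 in MM, neither called (adjusted p = 0.841 and 0.325), and within row 1 and row 2 the M difference was -0.32 and 0.50. The brighter Npc1 probe had the same order in CC, M and MM, with 0.53 and 0.80 on M 5 and M 6 and 1.42 on both M 7 and M 8. Whether the position on the slide or the pups set this order cannot be told apart.

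**Figure D4:**
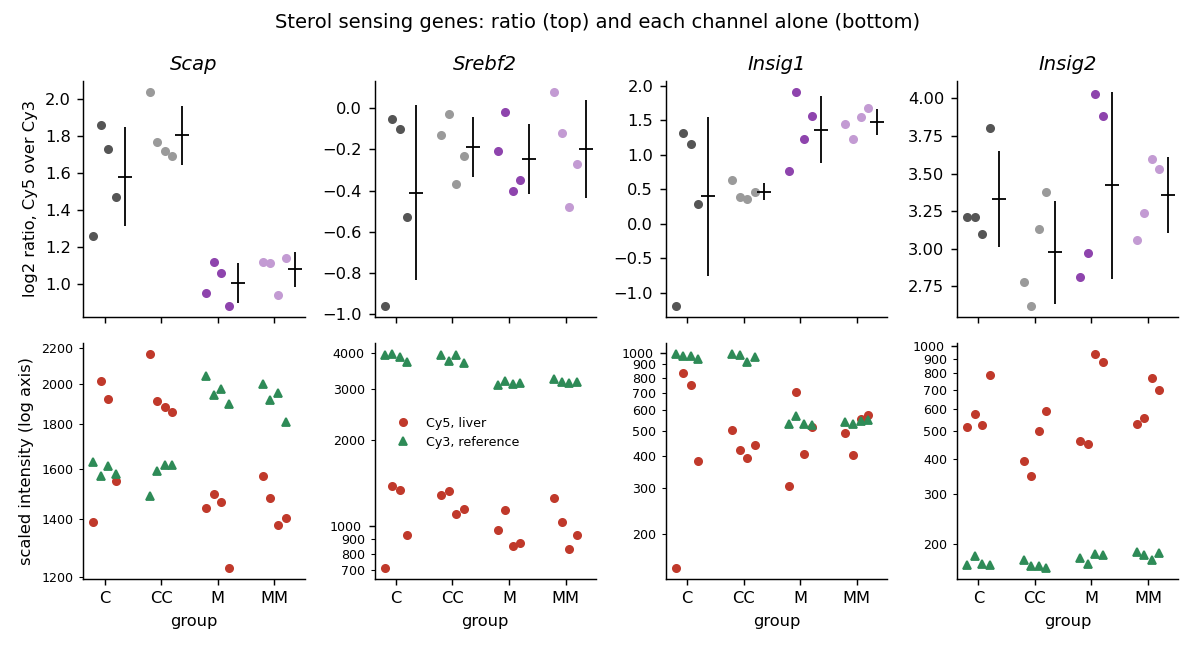
For Scap, Srebf2, Insig1 and Insig2, the upper panels show the log2 ratio of Cy5 over Cy3 on each array by group, with the group mean and SD (n = 4 arrays) as a bar beside the points. The lower panels show the scaled intensity of the liver channel (Cy5, circles) and of the reference channel (Cy3, triangles) on a log axis. Scap is lower in M and MM in the ratio, while the reference signal of Scap is higher and that of Insig1 lower on all 8 arrays of slide 2 than on those of slide 1.

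Among the 26 genes, Ggps1 had the smallest called difference. Its log2 ratio was 0.31, 0.12, 0.17 and 0.43 in C, 0.24, 0.45, 0.34 and 0.22 in CC, -0.01, 0.09, 0.05 and 0.16 in M, and 0.12, 0.05, 0.11 and -0.04 in MM. MM lay below CC by -0.25 ± 0.0785 (adjusted p = 0.0322, and 0.0646 with only CC and MM in the fit). Its Cy5 level, 88 to 93 in CC and 86 to 95 in MM, differed by -0.01, and slide 2 had the higher reference signal for it, by 0.43. The probe was well above background on 2 of 4 arrays in C, CC and MM and on 3 of 4 in M.

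Cross-fostering was compared within a slide. In CC against C none of the 26 genes was called, and 0% of all genes were (336 had an unadjusted p below 0.05 in limma, none of them a cholesterol gene). The differences of 22 of 26 genes were positive, with a median of 0.29 against 0.01 for all genes. Fdps was at 0.60 (95% confidence interval -0.35 to 1.55), Msmo1 at 0.58 (-0.37 to 1.54) and Sqle at 0.53 (-0.45 to 1.52). This direction rested on C 9: without it 22 of 26 genes had a negative difference, with a median of -0.17, and Fdps was at -0.07 and Sqle at -0.13. In MM against M, which does not involve C 9, 23 of 26 genes had a positive difference with a median of 0.20 (all genes 0.00), led by Hmgcs1 at 0.48 (-0.55 to 1.52), Mvd at 0.38 (-0.55 to 1.30) and Hsd17b7 at 0.38 (-0.35 to 1.11). None was called, and 0% of all genes were (275 had an unadjusted p below 0.05, none a cholesterol gene).

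The interaction asks whether the mixture difference was altered by cross-fostering, and it is free of a slide shift that is the same on every array of a slide. It was called for none of the 26 genes and 0% of all genes (348 at an unadjusted p below 0.05, none a cholesterol gene). The median was -0.08 with all arrays and 0.34 without C 9, where 23 of 26 genes were above 0, led by Hsd17b7 at 0.70, with a smallest adjusted p of 0.985. The 95% confidence intervals with all arrays reached up to 1.27 for Hsd17b7 and 1.44 for Hmgcs1.

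Other genes of the pathway were given from lists, whose counts stand beside 8.19% of all genes that rose and 12.3% that fell in M, and 7.83% and 12.3% in MM. Of 10 tested genes of sterol regulation (13 listed), 2 rose and 1 fell in M, and 1 rose in MM. Mbtps1, the protease that makes the first cut in SREBP, rose by 0.32 ± 0.0779 in M and 0.31 ± 0.0779 in MM (adjusted p = 0.00919 and 0.0102), with Cy5 at -0.08 and -0.05 and the reference at -0.39. Syvn1, a ubiquitin ligase of the endoplasmic reticulum, rose by 0.29 in M (adjusted p = 0.015, Cy5 0.15; 0.0537 without C 11) and was at 0.21 in MM (0.0641). Faf2, which helps to extract proteins for degradation, fell by 0.24 in M (0.0126, Cy5 0.00) and was at -0.06 in MM. Mylip, a ligase that degrades lipoprotein receptors, was at -0.15 and -0.32 (0.365 and 0.0555), with Cy5 at 0 and -0.11. The reference on slide 2 was at 0.23 for Faf2 and 0.26 for Mylip. Of the 11 tested genes of the isoprenoid and sterol branches (14 listed), 1 rose and 1 fell in M and none was called in MM, counts near those shares of all genes in M. Fnta, a farnesyltransferase subunit, was at 0.28 and 0.16 (0.0674 and 0.307), and the mitochondrial thiolase Acat1 at 0.43 and 0.41 (0.0868 and 0.102). In Cy5 alone Fnta was at 0.14 and 0.07, with the reference at -0.12. Acat1 was at -0.11 and -0.05 there, with the reference at -0.52, so its liver signal was not higher. Leaving out 1 array brought some of these ratio differences past the threshold: Mylip in MM without C 9 (0.0385) or CC 4 (0.0387), Fnta in M without C 12 (0.0318) or M 5 (0.0448), and Acat1 without M 7 in M (0.0458) and without MM 3 in MM (0.0314).

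Abcg5, which pumps sterols into bile, was lower in the liver channel as well as in the ratio. Of 16 tested genes (18 listed), 3 rose and 1 fell in M (all genes 8.19% and 12.3%), and 2 rose and 1 fell in MM (7.83% and 12.3%). Abcg5 fell by 0.86 ± 0.262 in M and 0.96 ± 0.262 in MM (adjusted p = 0.0287 and 0.0167), and by 0.81 and 0.82 in Cy5 alone (0.0293 and 0.0245), with a reference shift of -0.08. The ratio missed the threshold in M without C 10 (-0.77, 0.0817), C 12 (-0.80, 0.0708) or M 5 (-0.61, 0.0901), and in MM without CC 1 (-0.78, 0.0514). It also missed it in MM from the scanner software's log ratio (-0.48, 0.209), within array row 1 in M and MM (-1.15, 0.0972 and -1.05, 0.139) and within row 2 in M (-0.57, 0.0721). Osbpl2, an oxysterol-binding protein gene, rose by 0.25 in M (0.0336) and was at 0.22 in MM (0.0597), with Cy5 at 0.45 and 0.37 (0.00311 and 0.0109). The gene of the oxysterol receptor Nr1h2, named because it completes the count, rose by 0.26 in M (0.0387), with Cy5 at 0.02. In M, Osbpl2 was no longer called without C 9, C 10, C 11, M 5 or M 7 (adjusted p up to 0.102), nor Nr1h2 without C 9, C 11, C 12, M 6 or M 8 (up to 0.11). Nr1h2 was called in MM without CC 1 or MM 3 (0.0393 and 0.0175). The reference on slide 2 was at 0.20 for Osbpl2 and -0.26 for Nr1h2. Lrp1, a receptor for lipoprotein remnants, rose by 0.89 and 1.12 (0.000386 and 6.58e-05), but its Cy5 difference was -0.29 and 0.03 and its reference was 1.13 lower on slide 2. Lipa, the lysosomal lipase that frees cholesterol, rose by 0.66 in MM (0.00236) and was at 0.37 in M (0.0527; 0.48 without C 9 or M 7, adjusted p = 0.0198 and 0.0134), with Cy5 at 0.27 and -0.05. For Lipa the reference on slide 2 was at -0.42. None of the 12 tested fatty acid synthesis genes (15 listed) was called in M or MM: Me1, malic enzyme, was at 0.70 and 0.56 (0.0615 and 0.128), Fads1 at 0.56 and 0.45 (0.0869 and 0.172), Acaca at -0.17 and -0.02 (0.285 and 0.939), and Elovl5 at 0.16 and 0.19 (0.418 and 0.34). Me1 passed the threshold in M without C 10 or M 8 (0.0488 and 0.0407) and in MM without CC 1 (0.0309), and Fads1 in M without C 10 (0.0489) and in MM without C 9 (0.0424). In Cy5 alone Me1 was at 0.81 in M and 0.64 in MM, with the reference at 0.03. Fads1 was at -0.03 and -0.15 there, with the reference at -0.66, so the liver channel showed no rise for Fads1. Among the 11 genes of bile acid synthesis, 1 rose and 1 fell in M and 1 fell in MM, near the shares of all genes. Amacr, a racemase of bile acid intermediates, fell by 0.50 in M and 0.42 in MM (0.0148 and 0.0382), with Cy5 at 0.05 in both, and Hsd3b7 rose by 0.42 in M (0.0277, Cy5 0.21) and was at 0.18 in MM (0.35). The reference on slide 2 was at 0.50 for Amacr and -0.30 for Hsd3b7. The Amacr call in MM was lost without CC 2, CC 3, CC 4 or any 1 MM array (adjusted p up to 0.12), and the Hsd3b7 call in M without C 11, C 12, M 6 or M 7 (up to 0.0904). The reductase Akr1d1 was at 0.42 and 0.30 (0.083 and 0.216) and the hydroxylase Cyp27a1 at -0.04 and 0.19 (0.843 and 0.322).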

How the data were processed

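Liver RNA of 16 pools was measured on 16 Agilent arrays of 2 colours. The authors used Agilent Feature Extraction 11.0.1.1, per the file headers, and deposited an intensity value per spot, the median over its pixels, with that of the local background, for each channel. The deposited log10 ratio of Cy5 over Cy3 is the scanner software's, per the file headers. The deposited series table holds log2 ratios whose normalization is not given in the sources used here; it correlated at 0.996 to 0.997 per array with the ratios computed here.

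Background was corrected with normexp (offset 50) and ratios were normalized by loess within arrays, with control spots at weight 0 and outlier spots left out. Probes entered the fit if at least 3 of the 4 arrays of any group had Cy5 well above background (13262 of 30367 probes). Replicate spots were averaged, and symbols came from a RefSeq table of GRCr8. "Cy5 alone" and "reference" are log2 signals of 1 channel after normexp and quantile scaling across the 16 arrays, and levels are their antilogs. limma 3.58.1 (R 4.3.3) fitted the 4 group means to the 16 arrays together (two-sided, Benjamini-Hochberg over 12072 genes), and called means an adjusted p below 0.05. All adjusted p-values are from these fits, and the code was tested on simulated data.

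The members, lists and motifs were chosen with earlier results of these data known. Every member is accounted for; regulators, and members called in the ratio with the same direction in Cy5, are given on every array, and up to 4 genes per list by smallest p. A few genes that this rule names are not reported here. Alternatives were other normalizations, filters, blocks and leaving out each array. Median Cy5 intensity was 87 to 102 over a background of 67 to 73, and 4 arrays per group limit the precision.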

Additional observations from a re-analysis of the deposited data

Results flagged for a closer look

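Among 104 groups of 4 arrays (26 genes in 4 groups), 6 held an array far from the other 3, with a gap of more than 0.829 of the group's range; chance gives about 1 in 20 such groups. Lss was at a log2 ratio of -1.72 on C 9, with the next C array at 0.42. Acat2 was at 0.22 on M 6, with the next M array at -0.38. Nsdhl was at 2.46 on MM 3 (next 3.10), Ebp at 2.81 on MM 1 (next 3.13) and Scap at 0.94 on MM 3 (next 1.11). Insig2 was at 3.80 on C 12, with the next C array at 3.21.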

How the results depend on the processing

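The number of cholesterol genes called, 1 for M versus C and 2 for MM versus CC, was 0 and 1 in Cy5 alone, 2 and 2 from the scanner software's log ratio, 0 and 0 within array row 1, 2 and 2 within row 2 (in MM, Scap lower and Insig1 higher, as with only CC and MM in the fit, where Ggps1 was not called), and 2 and 1 with array row within slide as a block, an alternative chosen after seeing the data. In MM against CC it was 1 with no filter on dim probes and 1 among probes well above background on all 16 arrays. Leaving out each array in turn gave 1 to 6 in M against C, with 6 without C 9 and 2 without C 10, where Insig1 rose, and 1 to 3 in MM against CC, with 1 without CC 2, CC 3, MM 2 or MM 4, where Ggps1 was no longer called, and 3 in the fit without C 9, also added after seeing the data. Scap was lower in all of these fits, from -0.69 to -0.28 in M and -0.79 to -0.42 in MM. Of the differences called for genes named from the other lists, those of Mbtps1, Faf2, Lrp1 and Amacr turned sign or went to 0 in Cy5 alone in M, at -0.08, 0, -0.29 and 0.05, and those of Mbtps1 and Amacr in MM, at -0.05 and 0.05; some differences not called also turned. The comparisons of cross-fostering and the interaction had 0 calls among these genes in every fit run. The median over the 26 genes in M was 0.40 within row 1, which holds C 9, and -0.40 within row 2. Over all genes, 2470 calls in M against C became 274 in Cy5 alone, 4288 from the scanner log ratio, 849 within row 1 and 708 within row 2, and 2428 in MM against CC became 318, 4217, 598 and 1229, and 1555 with only those groups in the fit. CC and MM share replicate numbers 1 to 4, but deviations of same-numbered arrays correlated at 0.0577 to 0.339 (other numbers -0.336 to 0.281), so the numbers were not taken to pair samples; a fit with a replicate block called 3 genes in MM against CC, with Insig1 and Insig2 higher (adjusted p = 0.0043 and 0.0418) and Scap lower, but not Ggps1 (0.0622). Apart from the effect of leaving out an array or a filter by construction, the cause of these changes was not tested. Signal limits Ggps1 most, at Cy5 levels near background. Abca1 was also dim, at Cy5 levels of 154 to 228, and on C 9 Insig1, Lss and Mvk were at 148, 156 and 185.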

Other observations

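Outside the cholesterol and fatty acid genes, other transcripts also set C 9 apart from the mean of the other 3 control arrays. The pancreatic trypsin inhibitor gene Spink1 was at -3.15 on the log2 scale, the iron hormone gene Hamp at -1.72, the fatty acid carrier Fabp5 at -1.36 and Cyp1a1, an AhR target, at -1.34. Higher on C 9 were the metallothionein Mt2A at 1.73, the transcriptional repressor Bcl6 at 1.23 and the kallikrein gene Klkb1 at 1.14. In Cy5 alone these were at -2.19 for Spink1, -1.52 for Hamp, -1.31 for Fabp5 and -0.88 for Cyp1a1. Mt2A and Bcl6 were both at 1.38 there and Klkb1 at 0.99. The genes named were picked from the extremes of that array, and no test was made. Others as extreme were passed over, such as Np4 and Defa5 at 1.47, the pancreatic gene Cpb1 at 1.35, and Abo3 and Acnat2 at -1.47.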
